A study of Mus musculus with 34 samples.

Results

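The Sonic hedgehog pathway of the mouse limb bud was examined through 9 of its genes, namely the ligand Shh, the membrane proteins Ptch1, Smo and Hhip, the cytoplasmic inhibitor Sufu, the transcription factors Gli1, Gli2 and Gli3, and Hand2, a posterior regulator of Shh. They were chosen by gene symbol and were found once each among the 22040 genes of the mRNA-seq expression table. RNA was taken at E11.5 from the limb bud cells of WT embryos and of CKO embryos, with 3 libraries for each genotype. CKO embryos were homozygous for a loxP-flanked Hnrnpk allele, which Prrx1-Cre recombined (Hnrnpk encodes an RNA- and DNA-binding protein). Prrx1-Cre is active in limb mesenchyme and not in limb ectoderm, embryos of both sexes were used, and the labels tell neither forelimb from hindlimb nor how many embryos entered a library. The comparison asked whether transcripts of the pathway differed when Hnrnpk was deleted from the limb mesenchyme.

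Sonic hedgehog is secreted by posterior mesenchyme of the limb bud, the zone of polarizing activity, and patterns the digits from posterior to anterior. Without ligand, Ptch1 holds Smo inactive, and Gli3 and, to a lesser degree, Gli2 are processed to repressors. Ligand bound to Ptch1 releases Smo, Gli2 and Gli3 then act as activators, and Gli1, Ptch1 and Hhip are transcribed as direct targets, so that their transcripts serve as readouts of the pathway. Hand2 activates Shh in posterior mesenchyme, and Hand2 and Gli3 restrain each other across the anterior-posterior axis.

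The promoter windows of Hand2 and Gli3 are shown because these regulators antagonise each other and, in WT replicate 1, Gli3 had the largest excess over the other replicates of the 9 members and Hand2 the largest deficit, as described below. In CKO replicate 1, Gli3 was again in excess (0.87 on the log2 scale) but Hand2 was level (-0.03). Replicate 1 also moved with transcript length, as described below, with Hand2 (2351 bases) in the shortest class and Gli3 (9589 bases) in the longest. Neither a link between these shifts nor the part of length in them was tested. Each window holds 300 bases around the RefSeq start of the gene (build GRCm38.p6), printed 5′ to 3′ on the gene's own strand, with every CANNTG match in capitals (the E-box, the type of site bound by basic helix-loop-helix factors such as Hand2).
Hand2, chr8:57320733-57321032, plus strand: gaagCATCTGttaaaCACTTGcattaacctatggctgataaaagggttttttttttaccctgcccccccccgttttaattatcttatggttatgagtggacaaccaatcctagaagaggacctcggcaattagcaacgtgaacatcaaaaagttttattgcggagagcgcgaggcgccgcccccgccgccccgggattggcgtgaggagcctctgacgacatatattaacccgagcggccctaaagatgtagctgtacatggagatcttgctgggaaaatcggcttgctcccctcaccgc
Gli3, chr13:15463473-15463772, plus strand: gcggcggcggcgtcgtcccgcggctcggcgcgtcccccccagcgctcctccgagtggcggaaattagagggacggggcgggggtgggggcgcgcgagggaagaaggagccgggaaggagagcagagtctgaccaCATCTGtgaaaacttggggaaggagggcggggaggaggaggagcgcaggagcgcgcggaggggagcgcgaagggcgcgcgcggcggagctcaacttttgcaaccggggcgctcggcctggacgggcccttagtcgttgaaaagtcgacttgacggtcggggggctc
The Hand2 window held 2 matches and the Gli3 window 1. RefSeq windows were at hand for 7 of the 9 members (Ptch1, Smo, Sufu, Gli2, Gli3, Hhip and Hand2). CANNTG was found in 3 of these 7 (Gli3, Hand2 and Sufu) and in 72.3% of all 32851 windows, and GACCACCCA, the consensus of the Gli factors, was found on either strand in 0 of the 7 and in 0.253% of all windows. These are matches of letters only.

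Hnrnpk, the deleted gene, was at 193, 195 and 185 FPKM (fragments per kilobase of transcript, scaled to library size, a level per transcript length) in WT replicates 1, 2 and 3 and at 127, 142 and 135 FPKM in the CKO replicates. All CKO libraries lay below all WT libraries, with a log2 difference of -0.50 ± 0.13 (SE, n = 3) that did not pass limma's test across all genes (adjusted p = 0.334). FPKM of the whole gene also count its undeleted exons and the ectoderm and blood cells in which Prrx1-Cre is not active. The paper reports efficient loss of Hnrnpk in E11.5 CKO limb buds, by western blot of the protein and by qPCR. Its authors also propose that deletion by Prrx1-Cre may be incomplete in the hindlimb, which the labels do not separate from the forelimb. Between 17140869 and 24624434 reads per library fell on the listed genes, and the share of summed FPKM held by globin genes ran from 13.7% to 20.6% in WT and from 11.7% to 32.4% in CKO. All 9 limb mesenchyme markers examined, such as Prrx1 and Msx1, were expressed in every library. Notochord and floor plate, other sources of Shh in the embryo, were marked by 6 genes that summed to 0.478 to 0.904 FPKM in WT and 0.549 to 0.929 FPKM in CKO, with Noto at 0 in all 6 libraries. Throughout, differences are CKO minus WT on the log2(FPKM + 0.1) scale, adjusted p-values are limma's with Benjamini-Hochberg adjustment over 12305 genes, and the threshold is 0.05.

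None of the 9 members passed the threshold, and none had an unadjusted p under 0.05. Over all 12305 tested genes, 0.065% passed the adjusted threshold and 8.31% had an unadjusted p under 0.05. The estimated difference was below 0 for 6 members and above 0 for 3, with a median of -0.13 against 0.0048 over all tested genes. The 9 limb mesenchyme markers had 8 estimates below 0 and a median of -0.17, and the 10 limb ectoderm markers had 8 above 0 and a median of 0.15, with none of either list past the threshold. All 5 tested muscle precursor markers were above 0 (median 0.47), as were all 8 globin genes (0.42), and all 5 endothelial markers were below 0 (-0.32). The 4 tested macrophage markers were split, 2 each way (-0.02). None of these lists had a gene past the threshold. The summed mesenchyme markers ran from 223 to 245 FPKM in WT and from 198 to 227 FPKM in CKO. The part of these cell types in the members' differences was not tested. All 9 members had a mean of at least 0.5 FPKM and entered the test.

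**Figure D1:**
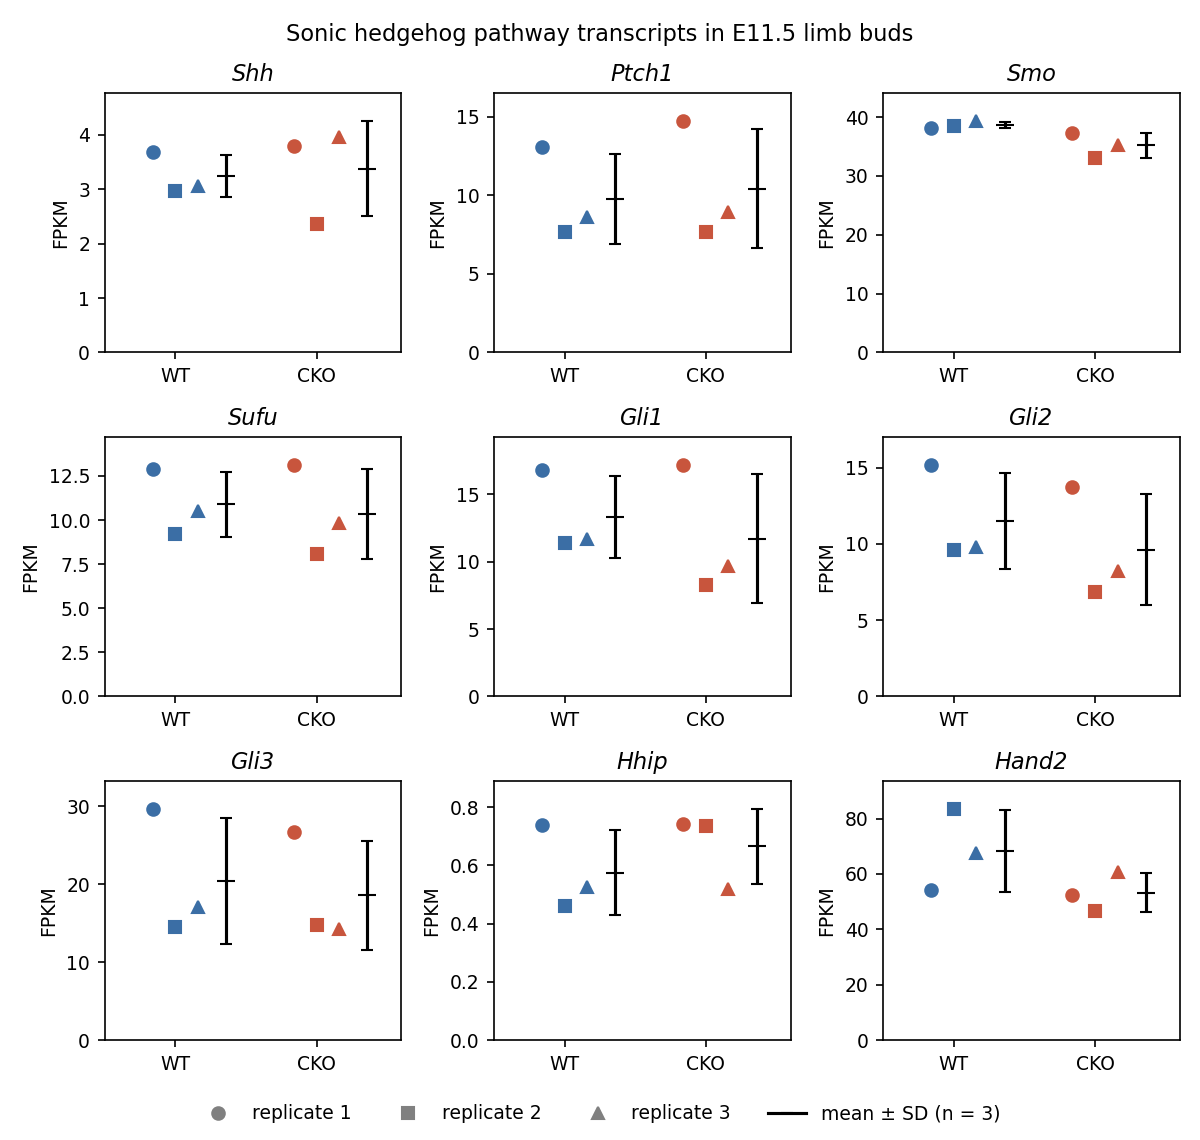
FPKM of each pathway member (vertical axis, starting at 0) in 3 WT and 3 CKO libraries, with symbols for replicate number and a bar for the mean ± SD of 3 libraries. Replicate 1 was the highest WT library for Shh, Ptch1, Sufu, Gli1, Gli2, Gli3 and Hhip, and Smo was the only member whose CKO libraries all lay below the WT libraries.

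Shh, the ligand, was at 3.68, 2.96 and 3.06 FPKM in WT replicates 1, 2 and 3 and at 3.78, 2.37 and 3.96 FPKM in CKO replicates 1, 2 and 3. The CKO libraries spanned the WT range on both sides, with the lowest and the highest of the 6 values both in CKO. The difference was 0.03 ± 0.21 (SE, n = 3), with a 95% interval from -0.47 to 0.53 (adjusted p = 0.983). Within replicate numbers it was 0.04, -0.31 and 0.36, so the libraries did not give one direction. Shh rested on 129 to 269 reads per library, for which counting alone gives an error of up to 8.8%. In bulk tissue, fewer cells of a type and less RNA per cell cannot be told apart, and Shh comes from a small part of the bud.

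Among the other ligands and the proteins that release them, Ihh and Dhh were at no more than 0.163 and 0.587 FPKM in any library, under the level tested. Of 7 genes in this list (Ihh, Dhh, Hhat, Disp1, Scube1, Scube2 and Scube3), 4 were tested, none passed the threshold, all 4 estimates were below 0 and the median was -0.12. Scube1, a secreted protein of the Scube family that helps to release lipid-bearing Hedgehog from cells, was at 45.5, 22.7 and 23.7 FPKM in WT and at 30.8, 14.0 and 16.1 FPKM in CKO. Its groups overlapped through replicate 1, and within each replicate number CKO was lower. Scube1 had a difference of -0.60 ± 0.36 (SE, n = 3, adjusted p = 0.721), and with the replicate number as a block it fell (adjusted p = 0.0085). With that block, 2.81% of all tested genes passed the threshold and 0 of the 9 members did.

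Ptch1, the receptor and a direct target, was at 13.03, 7.63 and 8.59 FPKM in the WT replicates and at 14.7, 7.64 and 8.91 FPKM in the CKO replicates. Replicate 1 was highest in both genotypes, and the groups overlapped over nearly their whole range. The difference was 0.07 ± 0.28 (SE, n = 3), with a 95% interval from -0.58 to 0.73 (adjusted p = 0.965). Within replicate numbers Ptch1 differed by 0.17, 0.0016 and 0.05, and with the replicate block the interval was -0.15 to 0.30.

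Smo, the signal-transducing membrane protein, was at 38.2, 38.6 and 39.3 FPKM in WT and at 37.3, 33.1 and 35.2 FPKM in CKO. It was the steadiest member and the only one whose CKO libraries all lay below the WT libraries, an arrangement found for 8.86% of all tested genes. No member had all CKO libraries above WT (5.63% of tested genes). The difference in Smo was -0.14 ± 0.11 (SE, n = 3, 95% interval -0.39 to 0.11, adjusted p = 0.812), and the exact two-sided permutation test gave p = 0.1, the smallest that 3 against 3 allows.

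Hhip, a membrane protein that binds and traps the ligand and a target of the pathway, had the lowest level of the 9. Its values were 0.740, 0.460 and 0.525 FPKM in WT and 0.743, 0.737 and 0.517 FPKM in CKO, from 100 to 128 reads per library. CKO replicate 2 stood with the replicate 1 libraries, and the groups overlapped. Hhip differed by 0.19 ± 0.25 (SE, n = 3, adjusted p = 0.889), with a 95% interval from -0.39 to 0.77.

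The further reception genes comprised the co-receptors Cdon, Boc and Gas1, the endocytic receptor Lrp2, the ciliary receptor Gpr161 and the glypican Gpc3. Lrp2 was under the level tested (at most 0.0365 FPKM). Of the 5 tested, none passed the threshold with or without the replicate block, and all 5 estimates were below 0 with a median of -0.16. Gas1 had the smallest unadjusted p of the list (0.057, adjusted p = 0.614). It was at 77.7, 78.5 and 77.25 FPKM in WT and at 70.6, 62.6 and 62.0 FPKM in CKO, with all CKO libraries below all WT libraries and a difference of -0.26 ± 0.12 (SE, n = 3).

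Sufu, which holds Gli proteins in the cytoplasm, was at 12.9, 9.23 and 10.5 FPKM in WT and at 13.1, 8.08 and 9.82 FPKM in CKO. The order of the replicates was the same in both genotypes and the groups overlapped. The difference was -0.09 ± 0.20 (SE, n = 3, 95% interval -0.56 to 0.38, adjusted p = 0.938).

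A further 17 genes of signal transduction were all tested, among them kinases, ciliary proteins and the parts of the ubiquitin ligases that act on Gli proteins. None passed the threshold with or without the replicate block, 13 estimates were below 0, 4 were above 0, and the median was -0.08. Stk36 (Fused), a kinase related to the fly Hedgehog kinase, was at 2.90, 2.35 and 2.44 FPKM in WT and at 2.20, 1.53 and 1.67 FPKM in CKO. Ulk3, a kinase that can phosphorylate Gli proteins, was at 2.13, 2.04 and 2.13 FPKM in WT and at 1.73, 1.43 and 1.70 FPKM in CKO. In both kinases every CKO library lay below every WT library, an arrangement found for 8.86% of all tested genes. Stk36 and Ulk3 had unadjusted p of 0.025 and 0.041 and adjusted p of 0.545 and 0.564 in limma's test. Over all tested genes, 8.31% had an unadjusted p under 0.05. In replicates 2 and 3 alone, described below, 2 of the 17 passed, beside 15% of all tested genes. They were Stk36 (-0.55, adjusted p = 0.0231) and the ciliary protein Iqce (-0.63, adjusted p = 0.0171), which was named after its values were seen. Both fell.

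Gli1, a target of the pathway that acts only as an activator, was at 16.8, 11.4 and 11.7 FPKM in WT and at 17.2, 8.25 and 9.69 FPKM in CKO. Replicate 1 was the highest in both genotypes and differed little between them, whereas CKO replicates 2 and 3 were the lowest of the 6. The difference was -0.23 ± 0.28 (SE, n = 3, adjusted p = 0.876), with a 95% interval from -0.89 to 0.42. Within replicate numbers Gli1 differed by 0.03, -0.46 and -0.27.

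Gli2, the main activator of the response, was at 15.2, 9.57 and 9.77 FPKM in WT and at 13.7, 6.87 and 8.24 FPKM in CKO. CKO was the lower library within each replicate number, by 0.14, 0.47 and 0.24 on the log2 scale, while the groups overlapped through replicate 1. Over all libraries the difference was -0.29 ± 0.28 (SE, n = 3, adjusted p = 0.855), and the 95% interval was -0.94 to 0.37. With the replicate block the interval narrowed to -0.53 to -0.05, and the adjusted p was 0.189.

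Gli3, the main repressor in the limb bud, was at 29.7, 14.5 and 17.1 FPKM in WT and at 26.7, 14.8 and 14.3 FPKM in CKO. Both replicate 1 libraries were far above the other 4, which lay close together, and the groups overlapped. The difference was -0.13 ± 0.32 (SE, n = 3, adjusted p = 0.944), with a 95% interval from -0.88 to 0.62. FPKM measure the transcript and do not tell the full-length Gli3 protein from its processed repressor.

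Hand2, the posterior activator of Shh, had the highest level of the 9 and the most negative estimate. It was at 54.1, 83.5 and 67.5 FPKM in WT and at 52.3, 46.7 and 60.8 FPKM in CKO. WT replicate 1 fell within the CKO range, so the groups overlapped, and the size of the difference varied from -0.05 in replicate 1 to -0.84 in replicate 2 and -0.15 in replicate 3. The difference was -0.35 ± 0.19 (SE, n = 3, 95% interval -0.78 to 0.09, adjusted p = 0.694). With the replicate block the interval was -0.66 to -0.03 and the adjusted p was 0.230. Gli2 and Hand2 were the 2 members whose blocked interval excluded 0 before adjustment, as it did for 18.4% of all tested genes.

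**Figure D2:**
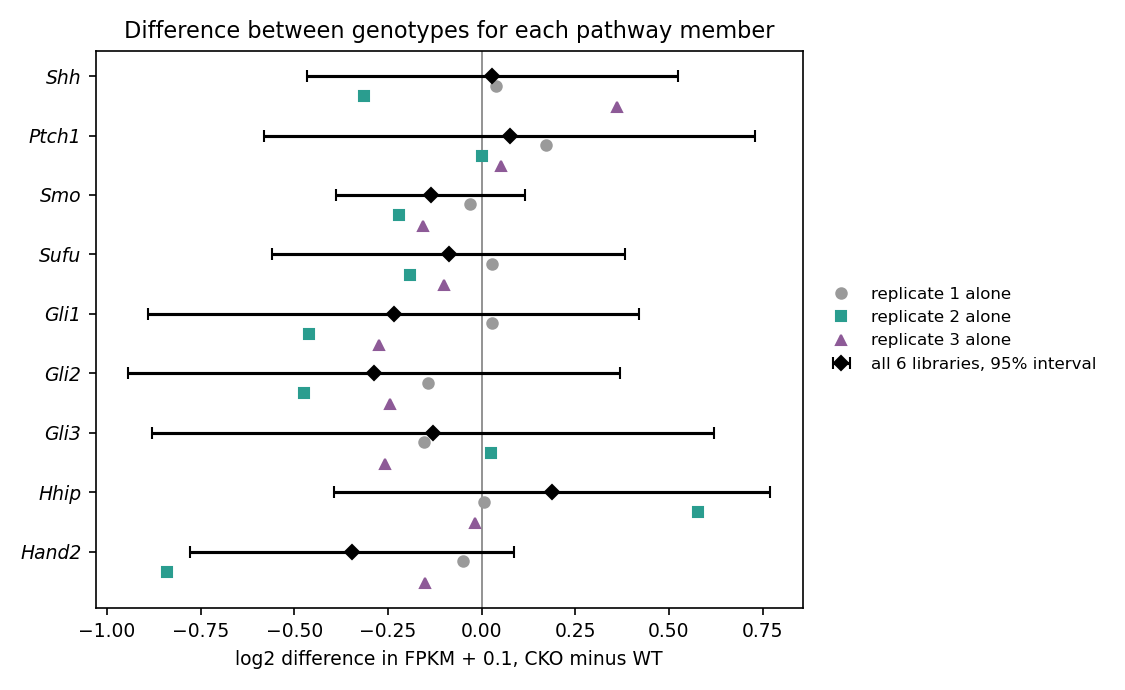
Difference in log2(FPKM + 0.1), CKO minus WT, for each member (horizontal axis), with diamonds and bars for the estimate and 95% interval over all 6 libraries and other symbols for each replicate number alone. All 9 intervals span 0, and the replicate 2 values of Hand2 and Hhip lie furthest from it, at -0.84 and 0.58.

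The members' levels followed nearly the same order in both genotypes. In WT, mean FPKM ± SD (n = 3) fell from 68.4 ± 14.7 for Hand2 to 38.7 ± 0.57 for Smo and 20.4 ± 8.12 for Gli3, and then to 13.3 ± 3.06 for Gli1, 11.51 ± 3.18 for Gli2, 10.9 ± 1.85 for Sufu and 9.75 ± 2.88 for Ptch1. Shh at 3.24 ± 0.39 and Hhip at 0.575 ± 0.146 were the lowest. From Gli3 to Ptch1 each gene's range over the WT libraries overlapped that of the next, but Gli3 lay wholly above Sufu and Ptch1. Within every library of either genotype, Gli3 was above Gli1 and Gli1 above Gli2. The order of Gli2, Sufu and Ptch1 varied between WT libraries. Hand2, Smo, Shh and Hhip stood apart from their neighbours. In CKO, Hand2 (53.3 ± 7.13) and Smo (35.2 ± 2.12) again led and Shh (3.37 ± 0.87) and Hhip (0.666 ± 0.128) again came last. Between them, the CKO ranges of Gli1, Ptch1, Sufu and Gli2 overlapped one another, with Gli2 (9.62 ± 3.64) below Ptch1 (10.4 ± 3.76), and Gli3 overlapped Gli1 and Ptch1 but lay wholly above Sufu and Gli2.

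Ratios within a library do not depend on how libraries were scaled. The log2 ratio of Shh to Hand2 was -3.84, -4.77 and -4.42 in WT and -3.75, -4.24 and -3.91 in CKO, so that within each replicate number it was higher in CKO while the groups overlapped. The log2 ratio of Ptch1, a target, to Smo was -1.54, -2.32 and -2.18 in WT and -1.34, -2.10 and -1.97 in CKO, also higher in CKO within each number. Gli1 to Gli3 gave -0.81, -0.35 and -0.54 in WT and -0.63, -0.83 and -0.55 in CKO, with no one direction. For Gli2 to Gli3 the log2 ratios were -0.96, -0.60 and -0.80 in WT and -0.95, -1.09 and -0.78 in CKO, again without one direction.

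Replicate 1 stood apart from replicates 2 and 3 in both genotypes, and for 7 members (Shh, Ptch1, Sufu, Gli1, Gli2, Gli3 and Hhip) this difference was larger in both genotypes than the estimated difference between genotypes. On the log2 scale, Gli3 in replicate 1 exceeded the mean of replicates 2 and 3 by 0.91 in WT and by 0.87 in CKO, Ptch1 by 0.68 and 0.83, Gli2 by 0.65 and 0.86, and Gli1 by 0.54 and 0.94. For Gli2 and Ptch1 both values lay above the 95th percentile of all tested genes, which was 0.57 in WT and 0.66 in CKO, as they did for Gli3. Sufu (0.38 and 0.55), Hhip (0.50 and 0.23) and Shh (0.28 and 0.30) were also higher in replicate 1. Smo barely moved (-0.03 and 0.13), and Hand2 went the other way in WT (-0.47) and was level in CKO (-0.03). Over all tested genes the medians were -0.02 and -0.01.

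**Figure D3:**
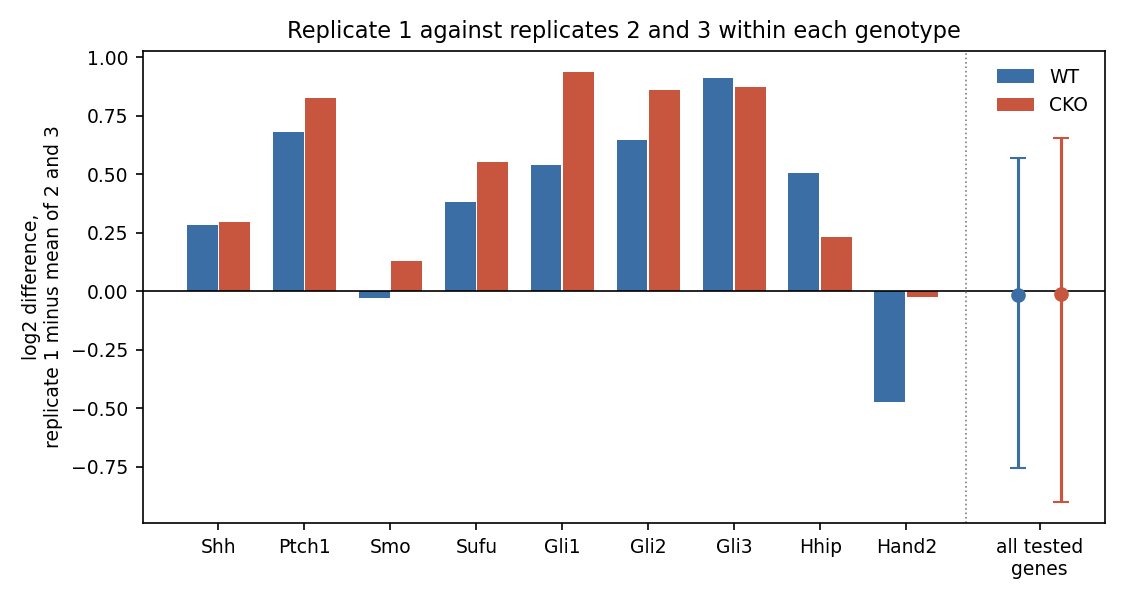
Difference in log2(FPKM + 0.1) between replicate 1 and the mean of replicates 2 and 3 (vertical axis) for each member in WT and CKO, with the median and the 5th to 95th percentile of all tested genes at the right. Gli3, Gli2 and Ptch1 exceed the 95th percentile in both genotypes, while Hand2 is at -0.47 in WT.

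Other measures also moved with replicate 1. The 6 muscle precursor markers, all detected, summed to 13.9 FPKM in WT replicate 1 against 29.0 and 26.0 in WT replicates 2 and 3, and to 25.1 against 32.2 and 30.4 FPKM in CKO. Globin genes held 13.7% and 11.7% of summed FPKM in replicate 1 of WT and CKO and 19.5% to 32.4% in the other 4 libraries. The summed FPKM of the 10 limb ectoderm markers ran from 45.3 to 60.3 in WT and from 45.5 to 62.9 in CKO, lowest in replicate 1 of each. The 5 endothelial markers instead went opposite ways in the 2 genotypes. They summed to 28.1 FPKM in WT replicate 1 against 18.4 and 21.1 in WT replicates 2 and 3. In CKO they summed to 14.0 FPKM in replicate 1 against 20.2 and 18.9. The part of these measures in the members' values was not tested, and the labels do not say what a replicate number stands for.

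When replicates 2 and 3 were compared alone, Hand2 had a difference of -0.49 ± 0.15 (SE, n = 2, limma adjusted p = 0.0185), and it was the only member of the 9 to pass. Its differences within replicates 2 and 3 were unequal, at -0.84 and -0.15. In this comparison of replicates 2 and 3 alone, 15% of all tested genes passed, against 0.065% with all libraries and no block. The comparison leaves out the replicate that stood apart in these same data. Its p-values therefore describe only the 2 remaining libraries of each genotype. Gli1 at -0.37 (adjusted p = 0.05, not under the threshold) and Gli2 at -0.36 (adjusted p = 0.0596) came next. Ptch1 (0.03, adjusted p = 0.918) and Shh (0.02, adjusted p = 0.942) were close to 0 there. Replicate 1 had a single library for each genotype and gave no test, and whether Hand2 differed more in replicates 2 and 3 than in replicate 1 was not tested. With all libraries, limma's adjusted p for Hand2 was 0.694 without the replicate block and 0.230 with it.

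The neighbourhood of Shh was described through 8 genes of its chromosomal region, of which Lmbr1 hosts the limb enhancer of Shh (the ZRS) in an intron. Of the 5 tested, none passed the threshold in any of the comparisons above, and the median was 0.07. Lmbr1 was at 1.73, 1.69 and 1.65 FPKM in WT and at 1.46, 1.51 and 1.42 FPKM in CKO, with all CKO libraries lower and an adjusted p of 0.789. Mnx1, a homeobox gene, had the smallest unadjusted p of the list, 0.088 in limma's test, with 0.419, 1.02 and 0.571 FPKM in WT and 0.933, 1.04 and 0.988 FPKM in CKO.

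Among 11 regulators of Shh transcription, 10 were tested and none passed the threshold without the block, with a median of 0.04. Tbx5, the forelimb T-box factor that acts upstream of limb outgrowth, was at 20.3, 19.1 and 19.2 FPKM in WT and at 15.3, 7.30 and 9.58 FPKM in CKO. Every CKO library lay below every WT library, the difference was -0.93 ± 0.24 (SE, n = 3, adjusted p = 0.358), and with the replicate block Tbx5 fell (adjusted p = 0.0073). Tbx4, its hindlimb counterpart, was at 27.6, 24.6 and 25.9 FPKM in WT and at 31.3, 22.5 and 24.8 FPKM in CKO (adjusted p = 0.997). Pitx1, a hindlimb homeobox gene, was at 37.7, 46.6 and 39.8 FPKM in WT and at 48.9, 47.9 and 49.9 FPKM in CKO, with every CKO library above every WT library and a difference of 0.25 ± 0.12 (SE, n = 3, adjusted p = 0.663). Isl1, which acts in hindlimb initiation, was at 3.52, 1.87 and 2.06 FPKM in WT and at 2.86, 3.34 and 2.72 FPKM in CKO. The groups overlapped for Isl1 through replicate 1, where WT was higher. In replicates 2 and 3 alone, where 15% of all tested genes passed, Isl1 rose (0.59, adjusted p = 0.0103) and Tbx5 fell (-1.19, adjusted p = 9.16e-08). The limit given above for this comparison holds for both. Tbx4, Pitx1 and Isl1 were named after their values were seen. A different share of forelimb tissue and a different level per cell cannot be told apart in these libraries.

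Genes of the posterior bud, many of which respond to Shh, included Grem1, Bmp2, the 5′ HoxD genes and Tbx2. Of 13, 12 were tested, none passed the threshold with or without the block, and the median was -0.12. Jag1, a Notch ligand, had the smallest unadjusted p (0.05018 in limma's test), with 10.3, 10.5 and 12.2 FPKM in WT and 16.5, 11.9 and 13.9 FPKM in CKO. In replicates 2 and 3 alone, 2 of these 12 genes passed, beside 15% of all tested genes. They were Hoxd11 (-0.41, adjusted p = 0.0238) and Osr1 (-0.46, adjusted p = 0.0129), both lower in CKO and named after their values were seen.

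The anterior genes, where Gli3 repressor prevails, were those with the most negative median of these lists, at -0.46. All 7 were tested, 6 had an estimate below 0, none passed the threshold without the block, and 3 fell with the replicate block, against 2.81% of all tested genes called in either direction. Alx4, a homeobox factor that restricts Shh to the posterior bud, was at 16.3, 9.56 and 9.92 FPKM in WT and at 11.4, 6.27 and 7.48 FPKM in CKO (blocked adjusted p = 0.0266). It was lower in CKO within every replicate number, while the groups overlapped through replicate 1.

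Irx3, an Iroquois factor of the anterior and proximal bud, was at 20.9, 13.9 and 12.5 FPKM in WT and at 15.6, 7.79 and 9.46 FPKM in CKO (blocked adjusted p = 0.0266). Gata6, a repressor of Shh in anterior mesenchyme, was at 2.68, 0.549 and 0.488 FPKM in WT and at 1.19, 0.147 and 0.223 FPKM in CKO (blocked adjusted p = 0.0312). Irx3 and Gata6 were lower in CKO within every replicate number, and replicate 1 was again the highest of each genotype. The remaining 4 anterior genes, Pax9, Irx5, Zbtb16 and Asb4, did not pass the blocked test. In replicates 2 and 3 alone, 5 of the 7 fell, against 15% of all tested genes that passed in either direction.

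**Figure D4:**
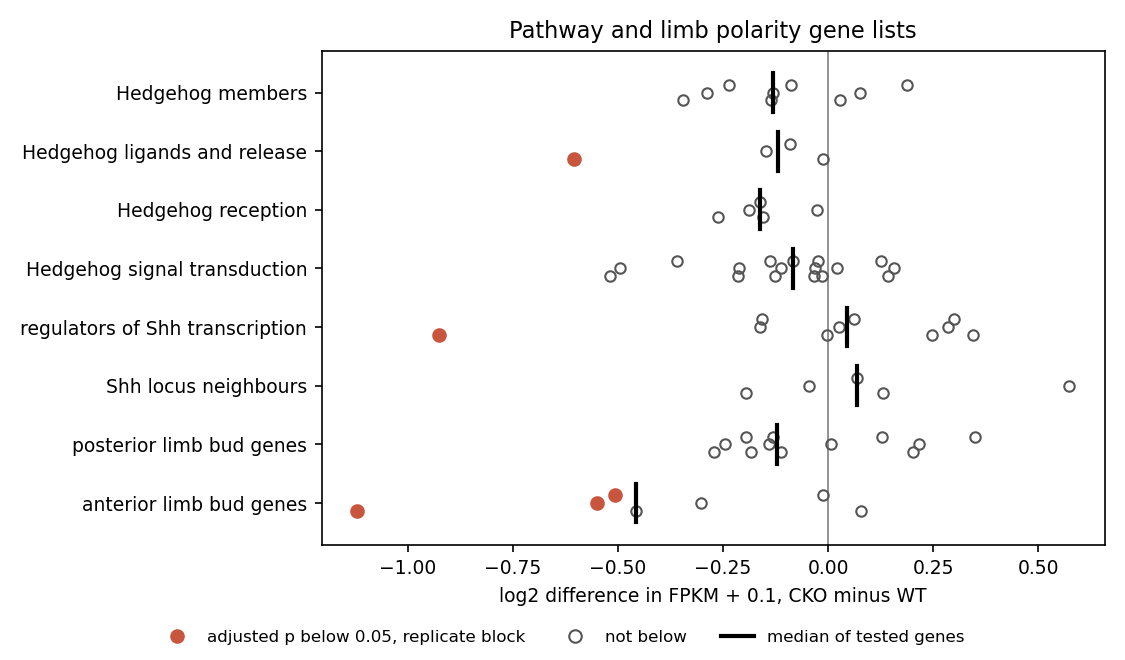
Difference in log2(FPKM + 0.1), CKO minus WT (horizontal axis), for each tested gene of the pathway and limb polarity lists, with filled points for an adjusted p below 0.05 with the replicate block and a black line at each list's median. Filled points are Scube1, Tbx5 and 3 anterior genes, all below 0, and none is a pathway member.

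The genes most like a member were those with the smallest root-mean-square difference of log2(FPKM + 0.1) profiles over the 6 libraries after each was centred on its own mean. For Shh these were Lad1 (0.050), Prr5 (0.074), Ctu1 (0.075), Jag2 (0.085) and Neurl2 (0.097). Ptch1 was closest to Crebbp (0.025), Arid1a (0.034), Ankrd52 (0.041), Proser1 (0.041) and Baz2a (0.042). Nearest to Gli1 were Auts2 (0.044), Gli2 (0.051), Bicra (0.055), Kif21b (0.058) and Ahdc1 (0.059), so that 1 of the 15 was itself a member. The libraries share the contrast between replicate 1 and the others, which these profiles carry too.

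On build GRCm38, Shh lies on the minus strand at chr5:28456815-28467256. Ptch1 lies at chr13:63508328-63573598 and Gli3 at chr13:15463235-15730026, Gli1 at chr10:127329882-127341974, Gli2 at chr1:118834132-119053619, and Smo at chr6:29735503-29761365. Sufu lies at chr19:46396896-46488804, Hhip at chr8:79965851-80058006 and Hand2 at chr8:57320983-57324633. Exons of Shh shared 807 bases with transcripts of the opposite strand, those of Hand2 461 (Hand2os1), Gli1 327, Gli3 188 and Hhip 175, whereas Ptch1, Smo, Sufu and Gli2 shared none. The kit kept strand, but the strand setting of the counting was not given in the sources used here, so reads of the overlapping parts may come from either gene.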

How the data were processed

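Poly(A) RNA of E11.5 limb bud cells was sequenced from 3 WT and 3 CKO libraries, described as biological replicates. The authors deposited FPKM per gene. Their processing notes name cutadapt 2.5, HISAT2 2.1.0, featureCounts 1.6.3 and build mm10, without roles. Samples of the other assays (Hi-C, ATAC-seq, CUT&RUN) were not analysed here. The nature of a replicate is not given further, so p-values measure the spread between these libraries. Reads recovered from FPKM and exon lengths of GENCODE vM21, which holds 21933 of the 22040 identifiers (99.5%), came out whole within 0.1 read for 93.7% to 94.1% of low values. They exceeded the implied library size 1.11-fold in CKO replicate 2 and 1.03-fold in CKO replicate 3, so the FPKM carry a further scaling between libraries.

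Genes with a mean of at least 0.5 FPKM (12305) were tested with limma 3.58.1 in R 4.3.3, on log2(FPKM + 0.1), letting the prior variance follow the mean. This scale understates changes of low genes. The two-sided threshold was an adjusted p of 0.05. In simulated data of the same 12305 genes, the test without the block recovered 55 of 100 genes changed by 1 on the log2 scale and 84 of 100 changed by 2, with 2 false calls, and the test with the replicate block 61 and 86, with 3. The block changed recovery little there (139 without and 147 with it), whereas in the data 8 and 346 genes passed. The simulated recovery may therefore not hold for these libraries. Deviations of same-numbered libraries from their genotype means correlated at 0.64, 0.44 and 0.27 for replicates 1, 2 and 3, and the libraries were therefore treated as paired by number, although WT replicate 2 correlated more with CKO replicate 3 (0.49) and WT replicate 3 more with CKO replicate 2 (0.31), so that only replicate 1 matched best by number. Text gives blocked values where they bear on a call.

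All 9 members are named. Of the other pathway and limb polarity lists, genes past the adjusted threshold with or without the block are named, or else the gene with the smallest unadjusted p. Any gene of these lists with an unadjusted p under 0.05 is named too. Cell type marker lists and globin genes are described as sets. In limma's test 1 endothelial and 1 neural marker had an unadjusted p under 0.05, both lower in CKO. For likeness, the 5 closest tested genes are given. A few listed genes are not reported here and were left out of the lists' counts. Members and lists were chosen with earlier results of these data known. Settings tried were pseudocount, filter, scaling, variance model, recovered reads in voom, the block, replicates 2 and 3 alone and each library left out, 17 in all.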

Additional observations from a re-analysis of the deposited data

How the results depend on the processing

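In the 17 other settings no member passed the threshold except Hand2 in replicates 2 and 3 alone, a count of 1. With the replicate block the count stayed at 0, while over all genes 139 passed higher and 207 lower, against 7 and 1 without it. In replicates 2 and 3 alone 867 passed higher and 984 lower. Quantile normalization gave 13 higher, no filter gave 0 lower, and scaling to summed FPKM without globin genes gave 4 higher and 0 lower. Recovered reads in voom gave 9 higher and 1 lower. Leaving out 1 library at a time gave 1 to 10 higher and 0 to 13 lower (13 without CKO replicate 1), with no member among them.

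Estimates turned sign where they lay near 0. Scaling without globin genes moved the median of all genes from 0.0048 to -0.0998 and gave -0.074 for Shh and -0.031 for Ptch1, both above that median. With 1 library left out, Shh ran from -0.10 to 0.26, Ptch1 from -0.20 to 0.30, Sufu from -0.27 to 0.074 and Gli3 from -0.42 to 0.17. The median over the 9 members ran from -0.27 (without CKO replicate 1) to 0.039 (without WT replicate 1), and was 0.0031 without CKO replicate 2. Gli1 and Gli2 stayed below 0 in all 17 settings, at -0.55 to -0.02 and -0.57 to -0.07, as did Smo and Hand2 (-0.50 to -0.19), and Hhip stayed above 0 in the 16 in which it was tested. The cause of these changes was not tested. With 3 libraries a genotype, the intervals of Ptch1, Gli1, Gli2, Gli3, Hhip and Hand2 reached beyond 0.6 on the log2 scale on at least 1 side.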

Other observations

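The contrast between replicate 1 and the other replicates followed transcript length. Across 12294 tested genes with a known merged exon length, that length correlated with the log2 difference of replicate 1 from the mean of replicates 2 and 3 at Spearman's rho of 0.38 in WT and 0.42 in CKO, over genes that are not independent replicates. The median difference rose from -0.24 in WT and -0.36 in CKO in the shortest 2459 genes (up to 2432 bases) to 0.18 and 0.24 in the longest 2459 (from 7602 bases). Ptch1 (14185 bases), Gli3 (9589), Hhip (9076) and Sufu (7691) are in the longest class, while Hand2 (2351) is in the shortest. Shh (2847 bases), Gli1 (4995) and Gli2 (6869) were higher in replicate 1 of each genotype, and Smo (5621) was nearly level. The part of transcript length in the members' values was not tested. Genotype differences had medians between -0.01 and 0.06 in all 5 length classes.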
